A study of Mus musculus with 17 samples.

Results

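The regions described here are the open-chromatin sites around 9 genes whose products sit on macrophages and speak to T cells and other lymphocytes: Cd40, Cd80, Cd86, Cd274, Pdcd1lg2, Icosl, Slamf1, Cd48 and Tnfsf9. They were chosen by gene name, as every site whose summit lay within 20 kb of one of the 9 gene bodies in the mm10 GENCODE annotation. This gave 74 of the 42088 sites compared across the genome. Of the 74, 9 lay within 1 kb of a start of their own gene, 4 lay within 1 kb of a start of a neighbouring gene, and 61 were distal. Starts here are those of protein-coding transcripts. No site fell in the windows of more than 1 member.

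The study made ATAC-seq libraries, in which a transposase cuts accessible DNA, from bone marrow-derived macrophages (BMDMs) of male C57Bl6/J mice aged 6 to 12 weeks. Marrow was grown for 7 days in medium conditioned by L929 cells, and the macrophages were then left untreated (0 h) or given 100 ng/ml of lipopolysaccharide (LPS) for 1 h or 18 h. Wild-type (WT) mice were compared with mice lacking the nuclear receptor Nur77 (gene Nr4a1), which carried a whole-body deletion made with a CMV promoter-driven Cre on a loxP-flanked locus and bred on without Cre; the labels give their genotype as "cre". Peak lists of 3 samples were at hand for each genotype and time, except for WT at 1 h with 2, of which 1 is named replicate 1-2. All macrophages, the controls included, were of this strain and culture, and nothing in the labels says whether samples of 1 group came from separate mice, so the p-values below measure the spread between these samples.

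An antigen-presenting cell needs more than peptide on MHC to steer a T cell. Members of the B7 family (Cd80, Cd86, Icosl, Cd274 and Pdcd1lg2) bind T cell receptors of the CD28 family, some of which activate and some of which inhibit; Cd274 and Pdcd1lg2 encode the ligands PD-L1 and PD-L2 of the inhibitory receptor PD-1. Tnfsf9, a ligand of the TNF superfamily, stimulates T cells through its receptor Tnfrsf9, Cd40 is the TNF receptor family member by which T cells signal back to the macrophage, and Slamf1 and Cd48 are SLAM family proteins that engage other SLAM proteins on neighbouring cells. LPS is a bacterial component sensed by Toll-like receptor signalling, which drives NF-kB, AP-1 and interferon regulatory factors (IRF) in macrophages.

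The lists hold no read counts, and they differed 25.5 times in depth, from 0.382 to 9.75 reads per kb of background as recovered from the fold values. Depth moved with the groups: it was 5.11 to 9.75 in WT at 0 h, 0.382 and 1.61 in WT at 1 h, 4.62 to 8.38 in WT at 18 h, 0.720 to 7.65 in KO at 0 h, 0.593 to 4.14 in KO at 1 h and 1.10 to 1.76 in KO at 18 h. Peaks were therefore ranked inside each list by −log10 p, rank 1 being the strongest, and only the best 24389 of each list, the length of the shortest list, were scored. The rank score is log2 of 24389 over the rank, so that a difference of 1 means a rank better by a factor of 2, and a site with no peak or a worse rank scores 0. A site was called where the Benjamini-Hochberg adjusted p of limma over all 42088 sites was under 0.05 and the rank score difference was over 1 in size. A rank says where a peak stands among the others of its list, not how many reads it holds. Replicate 1 of KO at 18 h stood apart by narrow peaks (median 135 bp, against 338 to 661 bp in the other lists), and WT 1 h replicate 1-2 was the shallowest list, so results were also computed without these 2.

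The labelled cell type was checked at promoters of marker genes. Of 9 macrophage markers, 7 had a promoter peak within the best 24389 in all 17 lists, and the remaining ones, Lyz2 and Fcgr1, in 16 and 15. Promoters of the other lineages were mostly closed: 4 of 5 T cell markers, 4 of 5 B cell markers, 4 of 5 neutrophil markers and 3 of 4 dendritic cell markers had no such peak in any list. The exceptions were Cd3d in 17 lists, Ms4a1 in 10, Camp in 10 and Zbtb46 in 13, while the fibroblast markers Col1a1 and Pdgfra had one in 14 and 1. In Nr4a1 itself, an intron site 8438 bp past the first start was weaker in KO (difference −1.20, adjusted p = 0.0055) but within the scored ranks in 8 of 9 KO lists, so that peaks in this gene give no check of the deletion.

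The DNA of 7 sites is shown first, as the + strand of mm10, for elements that stood out at 1 h, at 18 h or at both. The Tnfsf9 start-site peak and the Cd40 promoter are not among them. All are the central 201 bases of the site except the Cd274 promoter, where 129 bases upstream of the gene were taken from the RefSeq promoter table (mm10), which matched 6 of the 9 members and holds no entry for Cd40, Cd86 or Tnfsf9. The windows are chr17:57104512-57104712 (Tnfsf9, −713 bp), chr2:165074621-165074821 (Cd40, +19.0 kb), chr19:29367309-29367437 (Cd274 promoter), chr19:29389369-29389569 (Cd274, +22.0 kb), chr19:29417978-29418178 (Pdcd1lg2, −4.0 kb), chr19:29486593-29486793 (Pdcd1lg2, +64.6 kb) and chr1:171661936-171662136 (Cd48, −20.0 kb). Capitals mark matches, on either strand, to AP-1 (TGANTCA), IRF (GAAANNGAA), STAT (TTCNNNGAA), PU.1 (AGGAAGT), C/EBP (TTGCNNAA), NR4A (AAAGGTCA) or NF-kB, the last given by name only. No printed match overlaps another.
Tnfsf9 −713 bp: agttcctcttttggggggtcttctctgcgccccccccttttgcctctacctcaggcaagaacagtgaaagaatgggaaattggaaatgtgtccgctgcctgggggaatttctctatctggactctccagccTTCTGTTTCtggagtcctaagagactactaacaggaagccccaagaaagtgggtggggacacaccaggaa
Cd40 +19.0 kb: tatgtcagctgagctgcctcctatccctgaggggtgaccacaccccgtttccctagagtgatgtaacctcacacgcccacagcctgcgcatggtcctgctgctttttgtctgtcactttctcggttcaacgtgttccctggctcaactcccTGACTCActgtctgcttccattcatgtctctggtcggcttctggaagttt
Cd274 promoter: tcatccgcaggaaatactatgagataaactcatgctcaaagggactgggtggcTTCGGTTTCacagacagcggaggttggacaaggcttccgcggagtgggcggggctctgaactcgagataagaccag
Cd274 +22.0 kb: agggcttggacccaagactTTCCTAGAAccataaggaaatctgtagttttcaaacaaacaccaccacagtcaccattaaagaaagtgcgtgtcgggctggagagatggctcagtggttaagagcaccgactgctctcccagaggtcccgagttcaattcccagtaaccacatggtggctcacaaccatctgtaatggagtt
Pdcd1lg2 −4.0 kb: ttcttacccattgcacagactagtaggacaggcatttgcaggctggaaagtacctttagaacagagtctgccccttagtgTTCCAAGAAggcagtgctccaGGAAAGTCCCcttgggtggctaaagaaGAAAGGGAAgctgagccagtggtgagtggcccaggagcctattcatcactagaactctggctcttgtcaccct
Pdcd1lg2 +64.6 kb: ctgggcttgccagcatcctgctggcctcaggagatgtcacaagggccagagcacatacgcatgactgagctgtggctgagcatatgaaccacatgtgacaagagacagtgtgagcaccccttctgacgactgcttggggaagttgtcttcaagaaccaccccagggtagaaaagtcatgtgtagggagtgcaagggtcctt
Cd48 −20.0 kb: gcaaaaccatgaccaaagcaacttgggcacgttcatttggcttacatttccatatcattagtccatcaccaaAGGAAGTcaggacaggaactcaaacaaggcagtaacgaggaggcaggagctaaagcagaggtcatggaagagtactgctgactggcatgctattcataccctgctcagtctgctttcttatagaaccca

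The sequence matches differ between these elements. The Tnfsf9 −713 bp and Cd274 promoter windows each hold 1 IRF match, and the Cd40 element 1 AP-1 match. The Cd274 +22.0 kb element holds 1 STAT match and the Cd48 element 1 PU.1 match. The Tnfsf9 start-site peak at 82 bp, not printed, holds none of the 7 motifs. The Pdcd1lg2 −4.0 kb element holds a STAT, an NF-kB and an IRF match, and the Pdcd1lg2 +64.6 kb element holds none of the 7 motifs. Over the central 201 bases of all 74 sites, 14 held an AP-1 match, 12 an IRF match, 11 a PU.1 match, 11 a C/EBP match, 4 a STAT match and 4 an NF-kB match. Among all 42088 sites the shares with a match were 18.4% for AP-1, 7.48% for IRF, 16.5% for PU.1, 10.8% for C/EBP, 5.53% for STAT and 5% for NF-kB. The NR4A octamer, the monomer element of the Nur77 family, was present in 1 member site, at Cd40 +15.2 kb, and in 1.01% of all sites. Among RefSeq promoters it was present in 1.34%. Such matches are letters in a window and say nothing of binding.

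After 1 h of LPS, 8 of the 74 sites were called stronger than at 0 h, averaged over WT and KO, and 0 weaker, against 4.92% and 3.28% of all sites. The 8 were 5 sites at Tnfsf9, 2 at Cd40 and 1 at Pdcd1lg2. After 18 h, 7 sites were called stronger and 0 weaker, against 2.82% and 2.74% of all sites, and they were 4 sites at Cd274, 2 at Pdcd1lg2 and 1 at Cd48. From 1 h to 18 h, 6 sites were called stronger (background 3.87%) and 7 weaker (background 5.38%). In all, 14 sites were called in some comparison, and 1 of them, at Pdcd1lg2, was called stronger at both times. A site entered the comparison by reaching rank 24389 in 2 lists, so one that did so at a single time had to score higher there. This held for 4 of the 8 sites called at 1 h and 3 of the 7 called at 18 h, beside 7.15% and 5.49% of the sites called stronger over the genome, and for these the ranks and the difference are given as a description, without p. At 1 h and at 18 h, 5 of the called sites scored 0 in every 0 h list, beside 459 of 2071 and 266 of 1185 over all sites. The counts therefore rest in part on how the sites were chosen. They also moved with the limit on ranks: 16 were called at 1 h and 22 at 18 h with no limit, and 3 and 2 when only the 10000 best peaks were scored. The shares of all sites given above hold for the limit of 24389 only, so the counts under other limits cannot be set against them. The median difference of the 74 sites from 0 h was 0 at 1 h and 0.12 at 18 h, beside −0.019 and 0 over all sites. None of the sites at Cd80, Cd86, Icosl and Slamf1 was called.

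**Figure D1:**
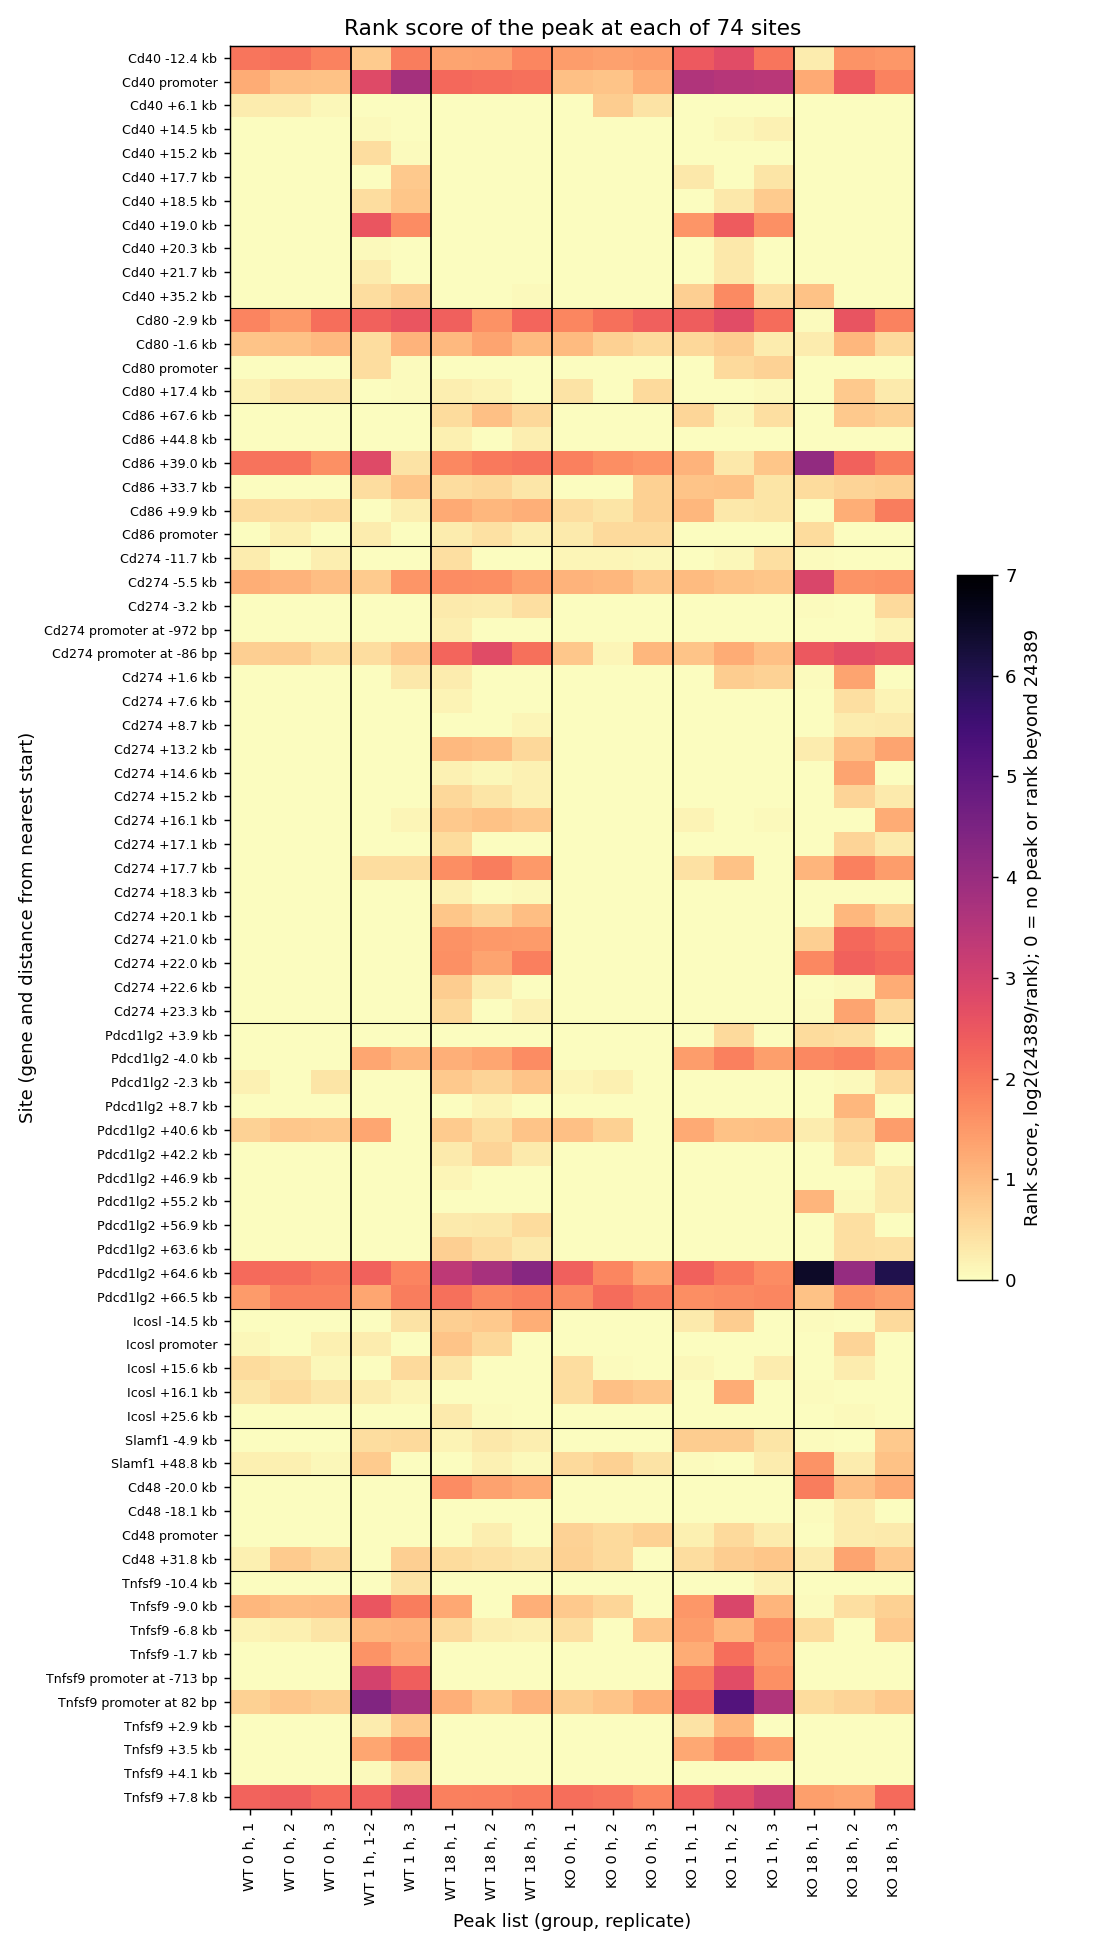
Rank scores (colour scale, log2 of 24389 over the rank, 0 where a list has no peak within that rank) of the member sites (rows, by gene) in the 17 peak lists (columns, by genotype and hours of LPS). Sites at Tnfsf9 and Cd40 gain colour mostly in the 1 h columns and those at Cd274 mostly in the 18 h columns, in WT and in KO.

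Many member sites reached the scored ranks at a single time: 24 of the 74 only at 18 h, 14 only at 1 h and 1 only at 0 h, while 25 did so at all 3 times. The counts per list repeat this choice of sites and are given as a description. At Tnfsf9, whose 10 sites span the gene and its flanks, each list at 0 h held 3 to 4 of them, each list at 1 h held 8 to 10, and each list at 18 h again held 3 to 4. At Cd40, which has 11 sites, the counts were 2 to 3 at 0 h, 5 to 9 at 1 h and 2 to 3 at 18 h. At Cd274 and its 20 sites, there were 2 to 3 at 0 h, 3 to 5 at 1 h and 10 to 19 at 18 h. The 12 Pdcd1lg2 sites gave 2 to 4, 3 to 5 and 6 to 11.

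Tnfsf9 (ENSMUSG00000035678, chr17:57105325-57107757, + strand) encodes a T cell-stimulating ligand and had the largest rise of a member promoter at 1 h. Its start-site peak, centred 82 bp into the 5′ UTR exon, ranked 15411, 13863 and 14705 in WT at 0 h, 1164 and 1853 at 1 h, and 10823, 13779 and 11301 at 18 h. In KO it ranked 14872, 13392 and 10715 at 0 h, 4721, 668 and 2021 at 1 h, and 17260, 15965 and 14185 at 18 h. All 5 lists at 1 h stood ahead of all 12 lists at the other times, in which the peak kept to the middle ranks. In WT the mean score went from 0.74 ± 0.08 (SD, n = 3) before LPS to 4.05 ± 0.47 (n = 2) after 1 h, and in KO from 0.92 ± 0.24 to 3.72 ± 1.42 (n = 3 each). Over both genotypes the difference was 3.06 ± 0.37 (SE) with an adjusted p of 5.7e-05, and from 1 h to 18 h the score fell by 3.05 ± 0.37 (adjusted p = 5.5e-05). The difference of 18 h from 0 h was 0.00 ± 0.35. The reads under the summit were 78, 72 and 128 in WT at 0 h against 21 and 70 at 1 h, and in KO 101, 23 and 14 at 0 h against 120, 38 and 56 at 1 h. In WT the better ranks at 1 h thus stood on fewer reads in shallower lists, while in KO the read numbers overlapped.

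**Figure D2:**
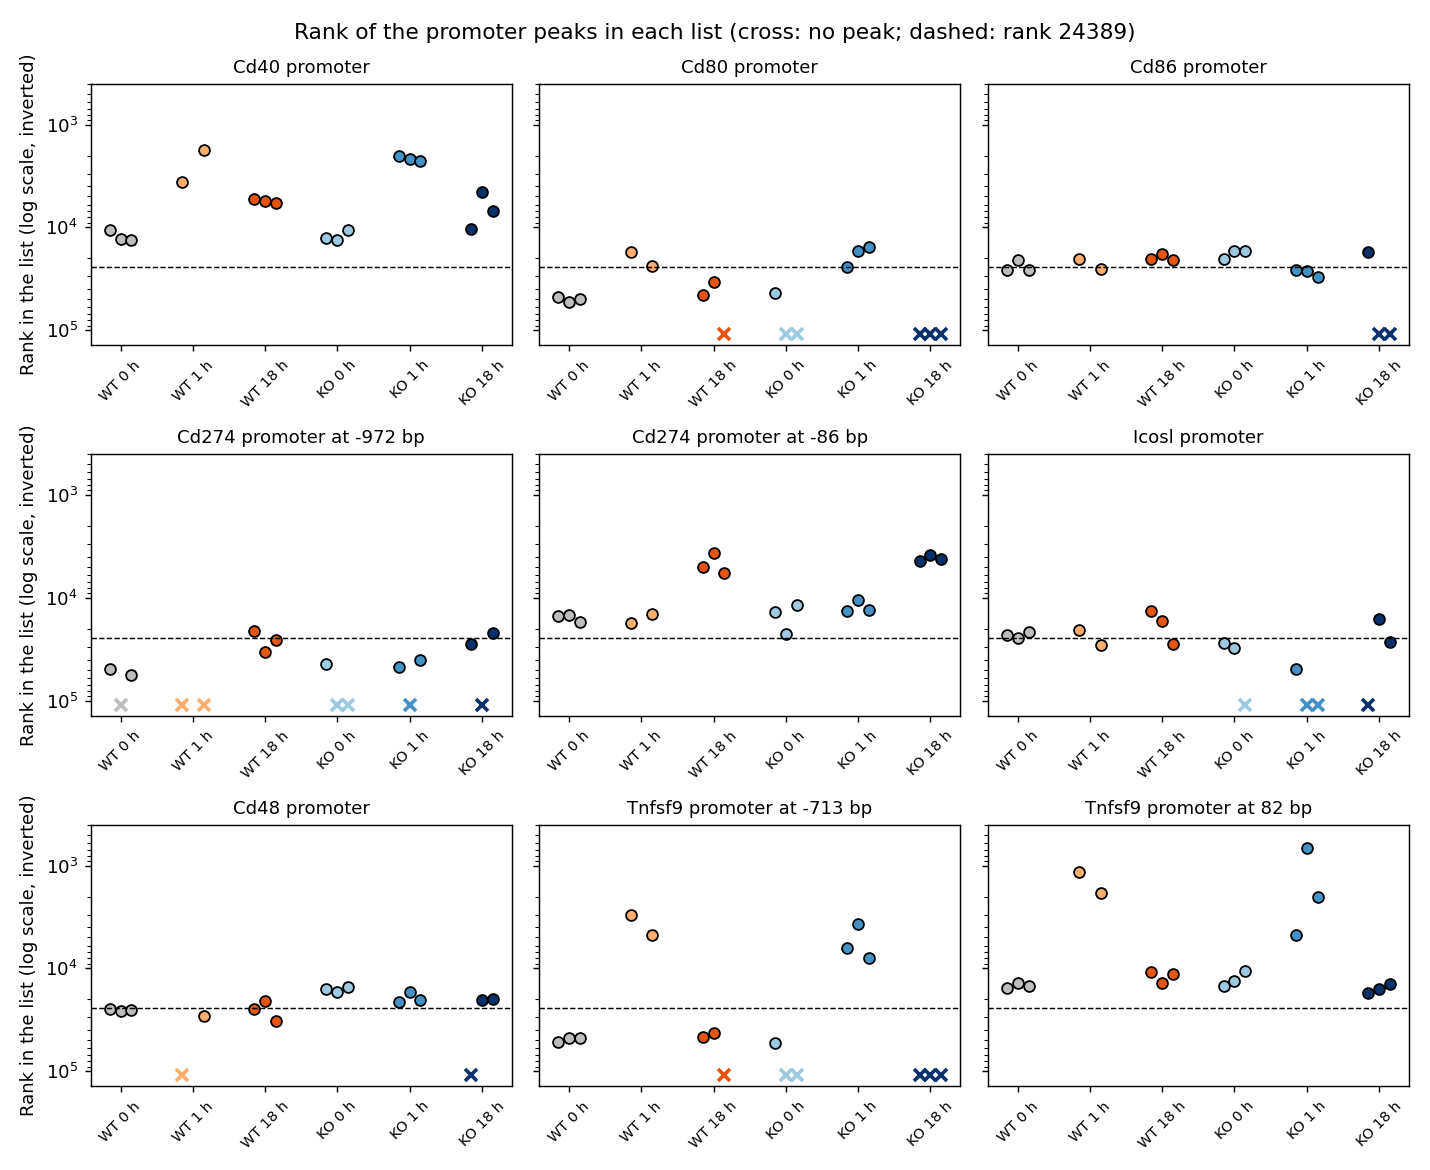
Rank of the promoter peak of the member genes in each of the 17 lists (log axis, rank 1 the strongest), grouped by genotype and hours of LPS, with crosses for lists without a peak and a dashed line at rank 24389. The Tnfsf9 and Cd40 promoters have their best ranks at 1 h and the Cd274 promoter at 18 h, in WT and in KO.

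Other sites near Tnfsf9 were within the scored ranks at 1 h only, and were thus tested only through the group where they are high. The site at −713 bp, one of those printed above, ranked well at that time: at 3059 and 4763 in WT and at 6391, 3683 and 7958 in KO. At 0 h it ranked 51905, 47786 and 47776 in the WT lists and 53055 in 1 KO list, with no peak in the other KO lists, and at 18 h it ranked 46595 and 42374 in 2 WT lists and was absent elsewhere. The difference at 1 h was 2.38 ± 0.16, set by the floor of 0 that every 0 h list takes. At −1.7 kb the ranks at 1 h were 8263 and 10331 in WT and 10551, 5574 and 8803 in KO, and no list at 0 h had it within 24389 (difference 1.50 ± 0.13). A site at +3.5 kb, 1.1 kb past the gene end, ranked 9850 and 7345 in WT and 10179, 7527 and 9266 in KO at 1 h, and was beyond the scored ranks in all other lists (1.49 ± 0.08). From 1 h to 18 h the differences of the 3 sites were −2.38, −1.50 and −1.49. With sites drawn as merged peak intervals, the +3.5 kb site was not called, at 0.54 from 0 h to 1 h and −0.90 from 1 h to 18 h. When only the 10000 best peaks were scored, neither it (0.20) nor the −1.7 kb site (0.24) was called at 1 h.

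Further upstream, at −9.0 kb, the Tnfsf9 site was among the scored peaks before LPS in 5 of 6 lists. Its ranks were 11675, 12627 and 12498 in WT at 0 h and 4204 and 6480 at 1 h, and in KO 14217, 16116 and 24922 at 0 h and 8443, 3321 and 11553 at 1 h. At 18 h it ranked 10017 and 10988 in 2 WT lists, had no peak in the other one, and ranked 23855, 17942 and 15381 in KO. The difference was 1.30 ± 0.33 at 1 h (adjusted p = 0.010) and −1.43 ± 0.33 from 1 h to 18 h (adjusted p = 0.0058). With depth as a covariate the first was 1.17 with an adjusted p of 0.096, and without WT 1 h replicate 1-2 it was 1.14 with an adjusted p of 0.053, where the 1 list left in WT at 1 h is assumed to vary like those of the other groups. When only the 10000 best peaks were scored, the differences were 0.77 and −0.77 and neither was called. At +7.8 kb a site was within the scored ranks in all 17 lists and differed by 0.54 at 1 h (adjusted p = 0.043), under the size threshold.

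Promoter sites elsewhere in the genome that followed the Tnfsf9 start-site peak most closely over the 17 lists were those of S100a6 (Pearson r = 0.984), Rab8b (0.977), Sbf2 (0.977), Ssc5d (0.961) and Tnfaip3 (0.961), among 13678 promoter sites. The lists share the 3 time points and their depths, and the correlation is given as a description.

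Cd40 (ENSMUSG00000017652, chr2:165055627-165072948, + strand), the receptor for T cell help, had a promoter that was strongest at 1 h and intermediate at 18 h. The peak, centred at −86 bp, ranked 10572, 12988 and 13216 in WT at 0 h, 3595 and 1778 at 1 h, and 5336, 5488 and 5743 at 18 h. In KO it ranked 12815, 13392 and 10715 at 0 h, 2036, 2183 and 2241 at 1 h, and 10273, 4501 and 6962 at 18 h. Every 1 h list stood ahead of every 18 h list, and every 18 h list ahead of every 0 h list, the last by a small margin for replicate 1 of KO at 18 h, whose peaks are narrow. The difference was 2.39 ± 0.21 at 1 h (adjusted p = 3.4e-06) and −1.40 ± 0.21 from 1 h to 18 h (adjusted p = 0.00026). At 18 h it was 0.99 ± 0.19 above 0 h (adjusted p = 0.0028), just under the size threshold, which it passed with depth as a covariate (1.00) and without any 1 of 4 lists, by the most (1.14) without replicate 1 of KO at 18 h. The Cd40 promoter site is also one of the 4 member sites with an NF-kB match.

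A distal Cd40 site at +19.0 kb, which lies 1.8 kb past the gene end and is printed above, was within the scored ranks only at 1 h. It ranked 4204 and 7656 in WT and 8291, 4525 and 7958 in KO. Outside 1 h its best ranks were 24425 in a KO list at 18 h and 27858 in a WT list at 18 h, and the 0 h WT lists had it at 37246, 41314 and 38157. The difference was 1.99 ± 0.16 at 1 h and −1.99 from 1 h to 18 h, against lists that all score 0, and the site was tested only through the 1 h lists. When only the 10000 best peaks were scored the differences were 0.70 and −0.70, and neither was called. At −12.4 kb another Cd40 site was within the scored ranks in all 17 lists and was called in no comparison.

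**Figure D3:**
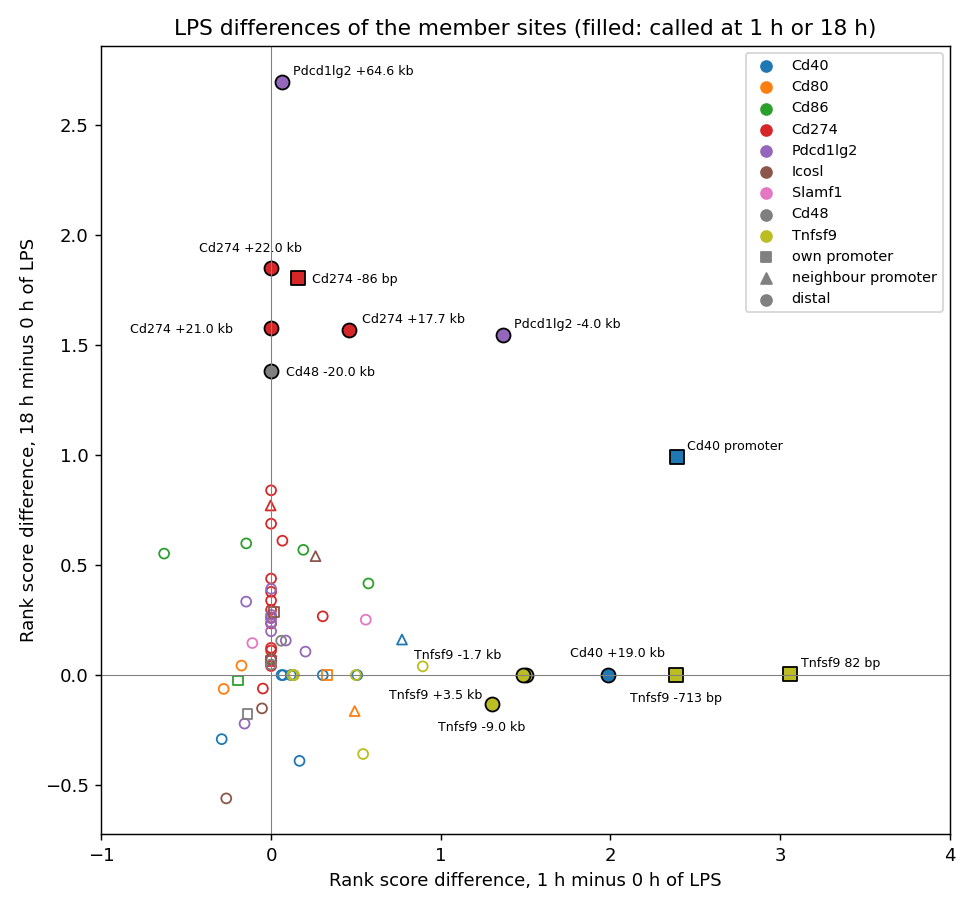
Rank score differences of the 74 member sites, 1 h against 0 h on the x axis and 18 h against 0 h on the y axis (log2 units, averaged over WT and KO), with the called sites filled and named and the marker shape giving own promoter, neighbour promoter or distal. The called Tnfsf9 sites and Cd40 +19.0 kb lie along the x axis, the Cd40 promoter above it, the called Cd274 and Cd48 sites and Pdcd1lg2 +64.6 kb near the y axis, and the Pdcd1lg2 −4.0 kb site is high on both.

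Cd274 (ENSMUSG00000016496, chr19:29367455-29388095, + strand), encoding PD-L1, changed late. Its promoter peak at −86 bp ranked 15088, 14649 and 17193 in WT at 0 h, 17414 and 14303 at 1 h, and 5061, 3664 and 5743 at 18 h. In KO it ranked 13867, 22197 and 11660 at 0 h, 13385, 10441 and 12975 at 1 h, and 4400, 3824 and 4180 at 18 h. The 18 h lists stood ahead of all others, and the 0 h and 1 h lists overlapped. The score rose by 1.81 ± 0.15 at 18 h (adjusted p = 6.4e-06), while the difference at 1 h was 0.16 ± 0.16 (adjusted p = 0.56). Another start, of the neighbouring gene Plgrkt, lies 61 bp from this summit, so the peak cannot be given to Cd274 alone. A weaker promoter site at −972 bp was within the scored ranks in 2 of 17 lists, both at 18 h (20839 in WT and 22025 in KO), and was not called. The main promoter of Plgrkt, at −5.5 kb, was within the scored ranks in all 17 lists and differed by 0.77 at 18 h (adjusted p = 0.017), under the size threshold.

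Beyond the promoter, 3 distal sites of Cd274 were called at 18 h. The intronic site at +17.7 kb ranked 7730, 6474 and 8685 in WT and 11542, 6804 and 9082 in KO at 18 h, against 17414 and 17650 in WT and 18092, 13130 and 25453 in KO at 1 h. At 0 h it was beyond the scored ranks in every list (41679, 37373 and 33477 in WT, and 33040 or no peak in KO). The 18 h lists stood ahead of all others. The difference from 0 h was 0.46 at 1 h and 1.57 ± 0.15 at 18 h, both against a group fixed at 0, and from 1 h to 18 h it was 1.11 ± 0.16 (adjusted p = 0.0002), and 0.999, under the size threshold, without replicate 3 of KO at 1 h. Just past the gene end, at +21.0 and +22.0 kb, peaks within the scored ranks were present only at 18 h, so that both sites were tested only through that group and all other lists score 0. The +22.0 kb site, printed above with its STAT match, ranked 7899, 9647 and 6628 in WT and 7299, 4871 and 5355 in KO, and its difference from 0 h was 1.85 ± 0.10. The +21.0 kb site ranked 8064, 8663 and 8925 in WT and 14937, 5269 and 6087 in KO (difference 1.58 ± 0.19). For both, the 1 h lists held no peak at all, and 1 list at 0 h held one, at rank 67625 for +21.0 kb and 61706 for +22.0 kb. When only the 10000 best peaks were scored, the differences from 0 h were 0.32 at +17.7 kb, 0.39 at +21.0 kb and 0.56 at +22.0 kb, and none was called.

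**Figure D4:**
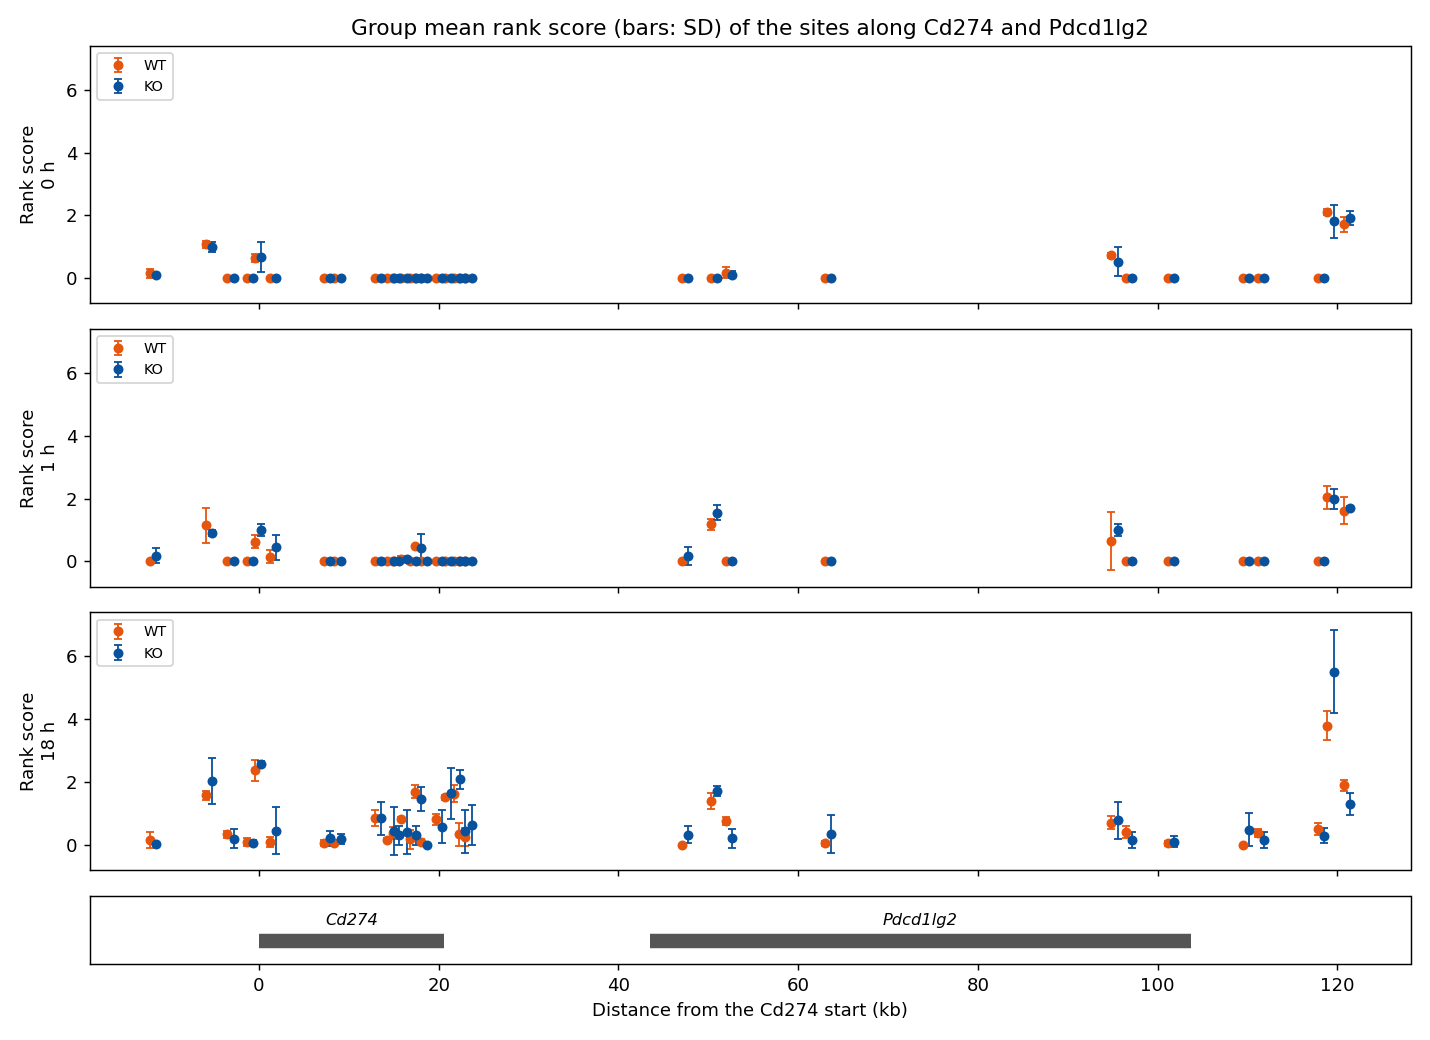
Rank score of each Cd274 and Pdcd1lg2 site (group mean, with SD bars over its 2 or 3 lists) against its distance from the Cd274 start in kb, for 0, 1 and 18 h of LPS in WT and KO, over a map of both gene bodies. The 18 h values rise at the Cd274 promoter, past the Cd274 end and at Pdcd1lg2 +64.6 kb, and the Pdcd1lg2 −4.0 kb site is raised at both 1 h and 18 h.

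Pdcd1lg2 (ENSMUSG00000016498, chr19:29410919-29471161, + strand), encoding PD-L2, had no promoter site among those tested, and its called sites were distal. The element at −4.0 kb, measured from the second annotated start and 7.2 kb inside the gene from the first, lies in an intron and holds the STAT, NF-kB and IRF matches printed above. It ranked 41679, 51652 and 45728 in WT at 0 h, 9850 and 11797 at 1 h, and 10823, 9826 and 7673 at 18 h. In KO it ranked 47464 in 1 list and was absent from the others at 0 h, ranked 9025, 6805 and 9266 at 1 h, and 7299, 6804 and 8492 at 18 h. It was the only member site called at both times, with differences of 1.37 ± 0.11 at 1 h and 1.54 ± 0.10 at 18 h from 0 h lists that all score 0. When only the 10000 best peaks were scored it was called at neither, at 0.14 (adjusted p = 0.35) and 0.28 (adjusted p = 0.064). The difference between the 2 times was 0.18 ± 0.11 (adjusted p = 0.26).

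The other called Pdcd1lg2 site, at +64.6 kb and 15.5 kb past the gene end, was within rank 9859 in every list. It ranked 5397, 5507 and 6122 in WT at 0 h, 4926 and 7044 at 1 h, and 2386, 1819 and 1265 at 18 h. In KO it ranked 4802, 7132 and 9859 at 0 h, 4906, 6174 and 7567 at 1 h, and 274, 1497 and 371 at 18 h. The 18 h lists stood ahead of all others, with a difference of 2.70 ± 0.36 from 0 h (adjusted p = 0.00017) and of 2.63 ± 0.38 from 1 h (adjusted p = 0.00023). The response at 18 h was 1.68 in WT and 3.71 in KO, and the difference between them, 2.02 ± 0.71, had an adjusted p of 0.53. Without replicate 2 of KO at 18 h, the list with rank 1497, the difference was 2.77 with an adjusted p of 0.019. It was not called without any other single list or without both doubted lists. The rank of 274 came from replicate 1 of KO at 18 h, whose peaks are narrow. The next site, at +66.5 kb, ranked between 5494 and 13081 in all 17 lists and was not called.

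At the genes for the classical CD28 ligands, Cd80 and Cd86, no site was called as the ranks were scored. The Cd80 (ENSMUSG00000075122, chr16:38455561-38496335, + strand) promoter peak ranked 47115, 53706 and 50025 in WT at 0 h and 17414 and 23650 at 1 h, and 24410, 17011 and 15545 in KO at 1 h. At 18 h it was at 44937 and 33744 in 2 WT lists and absent from the third and from all KO lists. The 1 h lists held the best ranks, but the score difference was 0.33 ± 0.11, under the size threshold. The site was scored only at 1 h and tested only through those lists. With no limit on the ranks it was called, at 1.12. A stronger Cd80 site at −1.6 kb ranked between 9647 and 20243 in all 17 lists and was not called. Distances at Cd80 run from a later start. The promoter peak and the −1.6 kb site lie in an intron, 3.3 and 1.8 kb inside the gene from its first start. The site at −2.9 kb, between that first start and the −1.6 kb site, lies at the promoter of the neighbouring gene Adprh. It was also present in all 17.

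At Cd86 (ENSMUSG00000022901, chr16:36603869-36666081, − strand), the strongest site was distal and in the gene body at +39.0 kb. It ranked 5950, 5963 and 7920 in WT at 0 h, 3595 and 18626 at 1 h, and 7318, 6251 and 5889 at 18 h. In KO it ranked 6743, 7684 and 8355 at 0 h, 11331, 19586 and 13768 at 1 h, and 1435, 4871 and 6512 at 18 h. Of the 1 h lists, 4 had the worst ranks of all, and the fifth, WT 1 h replicate 1-2, the shallowest list of the series, had a rank better than any at 0 h. The difference at 1 h was −0.63 ± 0.43 (adjusted p = 0.33) and that from 1 h to 18 h was 1.18 ± 0.43 (adjusted p = 0.06). Without that list they were −1.22 (adjusted p = 0.038) and 1.78 (adjusted p = 0.0052), and without it and replicate 1 of KO at 18 h they were −1.22 (adjusted p = 0.000448) and 1.45 (adjusted p = 0.000169). In both cases WT at 1 h holds 1 list, whose spread is taken from the other groups. The second difference was also called without replicate 3 of KO at 18 h (1.40, adjusted p = 0.030) and with no limit on the ranks (1.18, adjusted p = 0.032). The Cd86 promoter peak had ranks from 16815 to 30493 in 15 lists, was absent from 2 KO lists at 18 h, and was not called. A site at +67.6 kb, past the gene end, differed by 0.57 at 18 h, under the size threshold and from 0 h lists that all score 0.

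Icosl (ENSMUSG00000000732, chr10:78069302-78083913, + strand), the ligand of the T cell receptor ICOS, had a promoter peak within the scored ranks in 6 of 17 lists, which was not called. Its strongest distal site by mean rank, at +16.1 kb and 3.4 kb past the gene end, was within the scored ranks in 10 lists and differed by −0.56 ± 0.18 at 18 h, under the size threshold and against lists that nearly all score 0.

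Among the SLAM genes, Cd48 (ENSMUSG00000015355, chr1:171682009-171705258, + strand) had 1 called site. The element at −20.0 kb, printed above with its PU.1 match, ranked 7582, 9474 and 10441 in WT and 6567, 12931 and 10508 in KO at 18 h. No 1 h list held a peak there, and at 0 h the WT lists had it at 48642, 53706 and 45728 and 1 KO list at 67833. The difference was 1.38 ± 0.13 at 18 h, and the site was tested only through the 18 h lists, with a score of 0 in all others. When only the 10000 best peaks were scored it was 0.18 and not called. Slamf1 (ENSMUSG00000015316, chr1:171767127-171801184, + strand) had no promoter site among those tested and 2 distal ones. The site at +48.8 kb, within the scored ranks in 14 lists, was not called, and the one at −4.9 kb differed by 0.56 at 1 h, under the size threshold and from 0 h lists that all score 0.

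Whether loss of Nur77 changed these loci was asked by KO against WT over the 3 times and by the difference between KO and WT in the response to LPS. None of the 74 sites was called in KO against WT, where 0.0998% of all sites were, and none for the response at 1 h (0.0737%) or at 18 h (0.0261%). With backgrounds so low, a count of 0 in 74 does not set the members apart. At an unadjusted p under 0.05 there were 4 member sites for KO against WT, 3 for the response at 1 h and 7 for that at 18 h, of 4214, 2937 and 2848 over all sites. The smallest adjusted p among members was 0.40 for the response at 1 h and 0.33 for that at 18 h. For KO against WT the smallest fell at the Cd48 promoter, which was tested almost only through KO lists and is described below without p. The KO minus WT differences of the members ran from −0.45 (Tnfsf9 −9.0 kb) to 0.46 (Pdcd1lg2 +64.6 kb), with a median of 0.0085 beside −0.0026 over all sites. For the site at the upper end the 95% interval was −0.20 to 1.12.

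**Figure D5:**
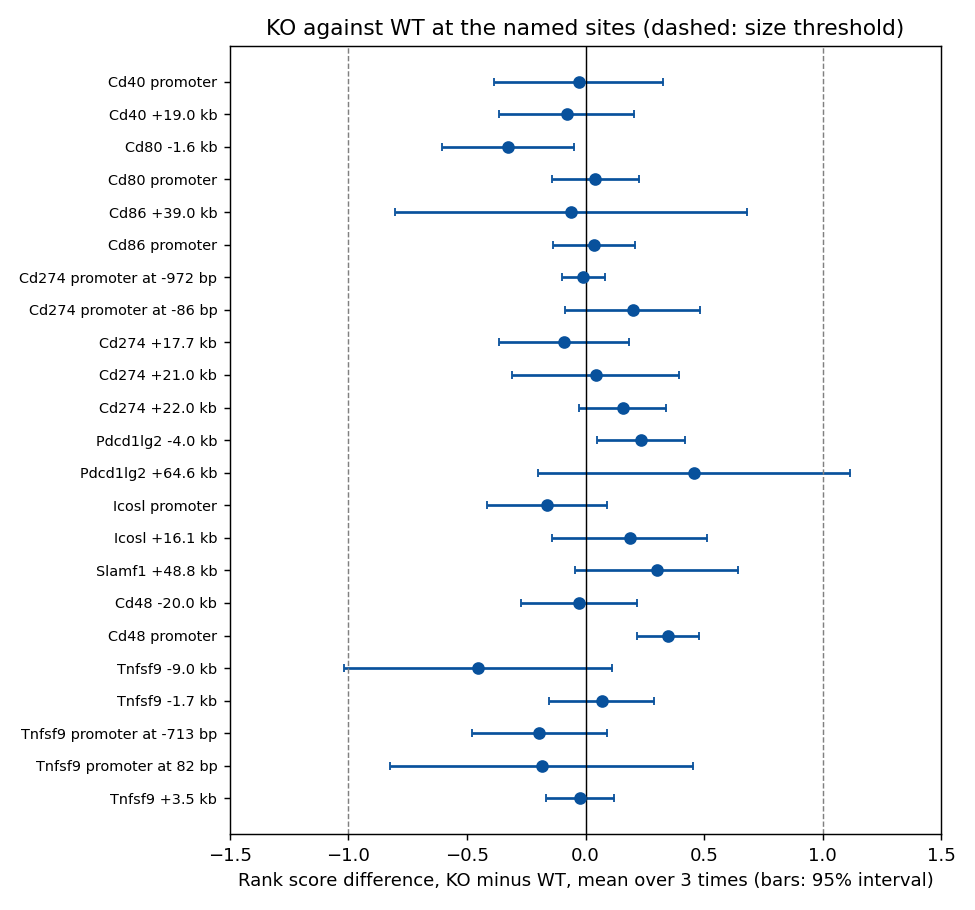
KO minus WT rank score difference of each named member site (points, log2 units, averaged over 0, 1 and 18 h) with its 95% interval from limma (bars), and dashed lines at the size threshold of 1 in each direction. All points lie between −0.45 and 0.46.

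The Cd48 promoter was within the scored ranks in 8 of 9 KO lists and 1 of 8 WT lists, and so was tested almost only through the genotype in which it is higher. It ranked 24838, 25779 and 25262 in WT and 15719, 16941 and 15292 in KO at 0 h, and at 1 h it was absent or at 28940 in WT and at 21107, 17011 and 20243 in KO. At 18 h the ranks were 25060, 20898 and 32438 in WT, and 20443 and 20004 in KO with no peak in replicate 1. All KO lists with a peak stood ahead of all WT lists but the one at 20898. The WT ranks at 0 h lie just past rank 24389 and score 0. The difference, given as a description for that reason, was 0.35 ± 0.06 over the 3 times, under the size threshold, and it was 0.61 at 0 h, 0.33 at 1 h and 0.11 at 18 h. WT and KO lists differed in depth at each time, and with depth as a covariate the difference was 0.32.

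A list of 33 other genes of these pathways (further B7, TNF and SLAM ligands, adhesion ligands and the signalling chain of Cd40) was counted by promoter sites, which 27 of them had. Vtcn1, Tnfsf4, Tnfsf18, Tnfsf8, Cd70 and Cd200 had none. At 1 h, 5 were called stronger and 2 weaker, against 4.92% and 3.28% of all sites. Those stronger were Birc3 (2.93) and Traf1 (1.12), which act below Cd40, the B cell survival ligand Tnfsf13b (1.26), Slamf8 (1.02) and Cd244a (1.52), and those weaker were the B7-like Vsir (−1.23) and the SIRP-alpha ligand Cd47 (−1.25). The Traf1 promoter was beyond the scored ranks in every 0 h list, and so was tested only through the LPS lists, where it is higher. At 18 h, 5 were called stronger and 2 weaker, against 2.82% and 2.74% of all sites: Birc3 (2.71), the galectin Lgals9 (1.46), the adhesion ligand Nectin2 (1.41), Tnfsf13b (1.10) and Traf1 (1.04) were higher, and Cd47 (−1.31) and Cd244a (−1.15) lower. From 1 h to 18 h, 2 were called stronger (Lgals9 and Traf5; 3.87% of all sites) and 1 weaker (Cd244a; 5.38%). The Cd244a calls average over WT and KO, and its rank score moved more in KO than in WT, by the ranks given below.

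In KO against WT, 1 of the 27 was called, beside 0.0998% of all sites: Cd244a, the receptor that binds the member Cd48, which is encoded in the same gene cluster with its promoter site 123 kb before the Cd48 start. This site, at −159 bp from the Cd244a start, ranked 4440, 4081 and 6693 in WT and 1581, 1239 and 1288 in KO at 0 h. At 1 h it ranked 3595 and 4971 in WT and 294, 216 and 114 in KO, and at 18 h 6593, 6355 and 6475 in WT and 4400, 7450 and 4180 in KO. WT and KO did not overlap at 0 h and 1 h but did at 18 h. The difference over the 3 times was 2.21 ± 0.19 (95% interval 1.80 to 2.63, adjusted p of limma = 0.00014). An exact permutation test, with genotypes permuted within each time (4000 regroupings), called no site of the genome. Its smallest adjusted p for KO against WT was 0.144. The Cd244a site was not followed under the other settings. The response at 1 h was larger in KO by 2.59 (adjusted p = 0.053) and that at 18 h differed by −1.53 (adjusted p = 0.37), neither called. The other SLAM promoters, of Slamf6, Slamf7, Slamf8, Slamf9, Cd84 and Ly9, differed between KO and WT by −0.01, 0.05, −0.17, 0.16, 0.05 and −0.10 and were not called.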

How the data were processed

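ATAC-seq peak lists of 17 samples were used, 1 per sample. Per the labels and the methods, the authors trimmed reads with cutadapt 2.6, aligned them to mm10, called peaks per sample and compared conditions with DiffBind 3.0.15; the peak caller is not given in the sources used here. Peak names in the deposited lists carry a mapping quality of 20, removal of mitochondrial and duplicate reads and a q-value of 0.001. The deposited columns hold −log10 p-values and −log10 q-values, a fold ratio over background at the summit, and a score that is 10 times the −log10 q. No counts were used, since the lists give none; whole reads, to within 0.01, came back from the fold values of 100% of entries, which gave the depth of each list.

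Each summit was ranked by column 8 (−log10 p). Non-overlapping 501-bp sites were centred on the best-ranked summits (51441), and 42088 reached rank 24389 in at least 2 lists. This site definition was chosen after the lists were seen, in place of merging intervals that overlap. Group means were fitted with limma 3.58.1 in R 4.3.3, and 6 contrasts were adjusted over all 42088 sites. Sites were named by rule: promoter sites of each member and up to 3 called distal sites of the largest difference, or the one with the best mean rank; other sites given in the text were chosen after their values were seen. The members and gene lists were chosen with earlier results of these data known. The fit was tested on simulated data. Sequence was read from mm10 with samtools 1.23.1. With 2 or 3 lists per group, and between 0.382 and 9.75 reads per kb, weak sites of shallow lists are missed. Alternatives are given in the closing section.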

Additional observations from a re-analysis of the deposited data

How the results depend on the processing

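The counts of member sites called were 8 at 1 h, 7 at 18 h and 13 from 1 h to 18 h, and 0 for each KO comparison. The counts under other settings are given without the share of all sites called there, and do not set the members apart. Scoring only the 10000 best-ranked peaks left 22 member sites to test, of which 3, 2 and 5 were called. With no limit on the ranks, 16 were called at 1 h and 22 at 18 h. With merged peak intervals, an alternative chosen after seeing the data, 5 were called at 1 h and 8 from 1 h to 18 h. Without both doubted lists, and with wider sites of the same kind, also chosen after seeing the data, the counts were 9, 8 and 14, and 7, 7 and 12. Leaving out 1 list at a time gave 8 to 8, 7 to 8 and 12 to 15, with 0 to 0 for KO against WT and 0 to 1 for each response. The single response call at 1 h came without WT 1 h replicate 3, at Cd40 −12.4 kb, where WT at 1 h rests on the shallowest list alone and the other groups give the spread, and that at 18 h without KO 18 h replicate 2, at Pdcd1lg2 +64.6 kb. With depth as a covariate the counts were 7, 8 and 13. Of the 28 calls of named sites, leaving out 1 list kept the call in 474 of the refitted values and lost it in 2, at Tnfsf9 −9.0 kb (1 h against 0 h, 1.14 without WT 1 h replicate 1-2) and at Cd274 +17.7 kb (18 h against 1 h, 0.999 without KO 1 h replicate 3); the other settings kept it in 311 and lost it in 23, of which 18 were under the limit of 10000. None reversed. With 10000 peaks, 8 named sites, among them the promoters of Cd48, Cd80, Cd86 and Icosl, could not be fitted, nor could Cd274 −972 bp without either of the lists that hold it. Counting promoters within 500 bp gave 7 in place of 9, and windows of 10 kb gave 62 sites in place of 74. The cause of these changes was not tested.

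Replicate numbers did not pair the samples, by the correlation of deviations from the group mean between lists of different groups. This correlation ran from −0.180 to 0.172 over 35 same-numbered pairs and from −0.224 to 0.296 over 70 differently numbered ones. With a replicate block the counts were 7, 7 and 13, and 0 for each KO comparison; Tnfsf9 −9.0 kb lost its calls (adjusted p = 0.080 and 0.054), and Cd86 +39.0 kb gained one from 1 h to 18 h (1.67, adjusted p = 0.0095).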

Other observations

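Some deposited peaks in these windows belong to none of the tested sites, because their summits lay over 250 bp from a site centre or because they were within rank 24389 in fewer than 2 lists. At Cd274, 120 of 318 deposited summits were of this kind, of which 29 were within the scored ranks of their list, the best at rank 8892. At Cd40 there were 100 of 212, with 18 within the scored ranks, and at Cd48 55 of 94, with 3. At Tnfsf9 there were 46 of 162, with 8 within the scored ranks, and at Pdcd1lg2 64 of 208, with 12.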
